A study of Mus musculus with 12 samples.

Results

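Gene expression was compared between the caudal and the rostral piece of the cortex within the control mice of a study of Egfr deletion in the brain. The comparison takes the 3 caudal and the 3 rostral libraries whose titles name them as control, 6 of the 12 libraries of the series, and pairs them by the animal number in the title (T4, T8 and T70). All mice were pups at postnatal day 5. Cortex and hippocampal formation were freed together from the ventral forebrain and cut into a rostral and a caudal piece, so each piece holds many areas, layers and cell types. The protocol gives the control genotype as EgfrF/+, with a loxP-flanked and an intact copy of Egfr, the gene of the epidermal growth factor receptor. The genotype label of the same libraries reads WT, and the labels state neither the strain nor whether controls carry a recombinase. The other 6 libraries come from 3 mice of the same age (T3, T6 and T80) in which both copies are floxed and Cre is driven by Nestin, a gene of neural progenitors. These cKO mice enter only where the same caudal against rostral difference is followed in them.

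Areas of the mouse cortex are laid out before birth by transcription factors expressed in opposing gradients. Pax6 and Sp8 are known for high rostral levels, and Emx2, Nr2f1 and Nr2f2 for high caudal levels. Fibroblast growth factors at the rostral pole and Wnt proteins at the caudomedial edge help to set these gradients, and the hippocampus forms next to that Wnt source. The hippocampal formation curves through the caudal hemisphere and its dentate gyrus still makes neurons after birth, while the rostral hemisphere holds frontal and motor cortex and lies over the striatum.

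The control libraries held 54680589 to 82056738 counts, and 38832 of the 55357 genes of the deposited tables had a count in at least 1 of them. Levels below are in CPM, counts scaled to the size of the library with TMM factors, and 3 values in a row always belong to T4, T8 and T70, in that order. A difference is the caudal minus the rostral level on the log2 scale, with its standard error (SE), from a fit that keeps the animal as a block. A gene passed, or was called, at an adjusted p under 0.05 in edgeR's quasi-likelihood test with Benjamini-Hochberg adjustment over 20461 genes (n = 3 animals with a library of each piece). In bulk tissue, more cells of a type and more RNA per cell cannot be told apart. Mitochondrially encoded genes took 2.62%, 3.13% and 3.63% of the counts of the rostral libraries and 2.31%, 2.18% and 1.85% of the caudal libraries. This share was lower caudally in every animal, and its part in the results was not tested. The libraries of T8 stood apart in genes of neighbouring tissue: of the 3 rostral libraries, that of T8 held the lowest summed levels of meningeal and striatal genes, and its caudal library held little of the choroid plexus gene Ttr, as given below. Among the cKO pairs, T3 went against its region labels for most genes that were higher caudally in control, and values without it are given with that comparison. Transcripts that define cortical projection neurons were abundant in all 6 libraries, with Neurod6 at 253, 378 and 387 CPM rostrally and 193, 258 and 238 CPM caudally. Egfr itself (chromosome 11, 16702203 to 16868158, GRCm39) was at 42.3, 40.1 and 49.4 CPM rostrally and 45.9, 39.6 and 40.6 CPM caudally. These levels overlapped, and the difference did not pass (-0.06, SE 0.07, edgeR adjusted p = 0.634).

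The caudal and the rostral piece differed over a large part of the transcriptome, and the differences on the caudal side were the larger ones. Of the 20461 genes tested, 3144 passed (15.4%), of which 1700 were higher caudally (8.31%) and 1444 lower (7.06%). The difference had the same sign in all 3 animals for each of these genes. The paired test that called them favours such genes, so this is not separate evidence. The rostral and caudal libraries did not overlap for 1562 of the higher and 1342 of the lower genes, and for 6419 of all genes tested (31.4%). A gap between the pieces is thus usual for a called gene, and where it is given below it adds no evidence. Among the higher genes the median size of the difference was 0.64, and 502 of them (29.5%) differed by 1 or more on the log2 scale. Among the lower genes the median size was 0.36, and 139 (9.63%) reached that difference. The median over all genes tested was 0.0049. The split between directions depended on the scaling: 54.1% of the called genes were higher caudally with TMM factors, and 74.2% of 3813 with library size alone. The count leaned on animal T8, without which 1685 genes passed, 1010 higher and 675 lower. With the 6 cKO libraries added to the fit, so that all 12 share an estimate of the spread, 0 genes passed and 2420 had an unadjusted p under 0.05.

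**Figure D1:**
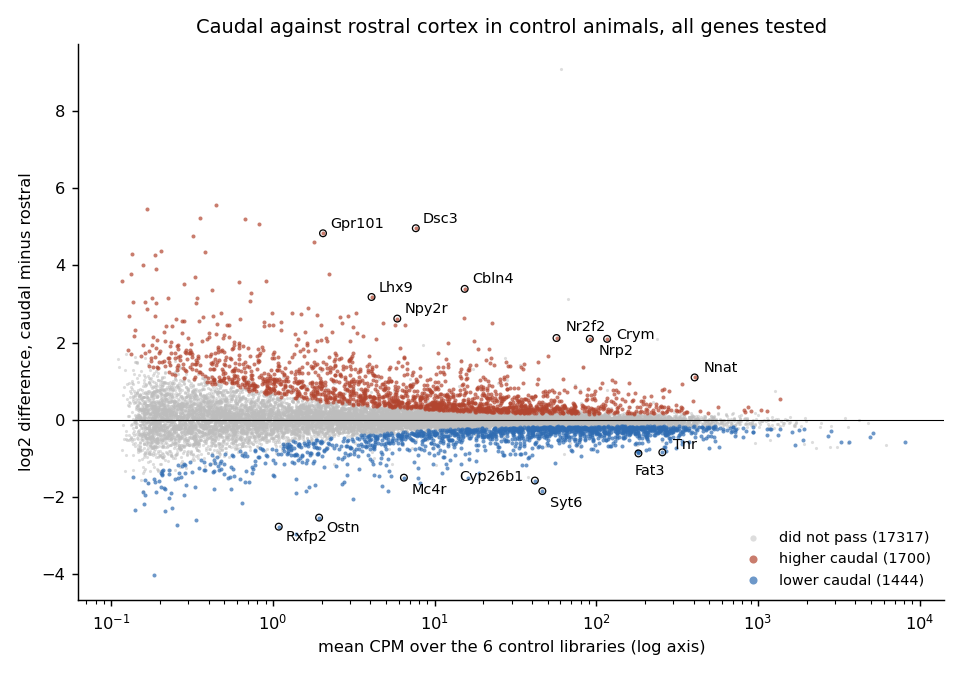
Difference between caudal and rostral cortex (log2, vertical axis) against the mean level in CPM over the 6 control libraries (horizontal log axis) for the 20461 genes tested, 1 point each. The 1700 genes called higher (red) reach further from 0 than the 1444 called lower (blue), and grey points did not pass. Genes named on the plot are described in the text.

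The 15 largest differences towards the caudal piece were all in genes of low rostral level. These, and the other genes named for the size of their difference, were picked among called genes whose libraries do not overlap. A gap between the pieces was thus set by the choice. Dsc3, a desmosomal cadherin, was at 0.445, 0.355 and 0.599 CPM rostrally and 18.1, 14.7 and 11.7 CPM caudally (4.96, SE 0.18, edgeR adjusted p = 8.8e-07). Every caudal level was more than 10 times any rostral level. Cbln4, a secreted protein that organises synapses, was at 2.80, 2.92 and 2.23 CPM rostrally and 33.1, 27.6 and 23.4 CPM caudally (3.39, SE 0.09, edgeR adjusted p = 4.68e-08). Its rostral libraries were alike. Gpr101, an orphan receptor, was at 0.241, 0.0618 and 0.113 CPM rostrally and 6.21, 2.65 and 2.96 CPM caudally (4.83, SE 0.21, edgeR adjusted p = 1.08e-06), with T4 highest among the caudal libraries. Chrm5, the muscarinic M5 receptor (3.79), Htr5b, a serotonin receptor (2.90), and Npy2r, the Y2 receptor of neuropeptide Y (2.62), also stood among the 15 largest differences. So did the LIM homeobox factor Lhx9 (3.18), the carbonic anhydrase Car12 (2.77), the phosphodiesterase Pde11a (2.75), the complement receptor Cr2 (2.68), and the secreted proteins Olfm4 (2.76), Col2a1 (2.66), Wnt2 (2.53) and Myoc (2.52). All 15, to which Fibcd1 of the hippocampus belongs as well, were below 5 CPM in every rostral library. Myoc lost its call without T70 (2.64, edgeR adjusted p = 0.0767).

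Abundant transcripts, with a mean of at least 50 CPM and picked in the same way, differed by smaller factors. Crym, a thyroid hormone binding protein of the cytosol, was at 35.7, 46.1 and 50.9 CPM rostrally and 164, 218 and 185 CPM caudally (2.10, SE 0.08, edgeR adjusted p = 6.75e-07). Nnat, an imprinted gene of a small membrane protein, was at 279, 254 and 241 CPM rostrally and 601, 555 and 505 CPM caudally (1.10, SE 0.05, edgeR adjusted p = 1.16e-06). The caudal level of each lay above the rostral level by a like factor in the 3 animals. Camk2d, a calcium and calmodulin dependent kinase (1.37), Sertm1, a small transmembrane protein (1.66), and Acvr2a, a receptor for activins (1.03), were higher caudally as well.

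On the rostral side, the relaxin family receptor Rxfp2 was at 1.89, 2.01 and 1.78 CPM rostrally and 0.265, 0.269 and 0.299 CPM caudally (-2.76, SE 0.21, edgeR adjusted p = 2.6e-05). Ostn, which encodes the secreted peptide osteocrin, was at 3.04, 3.55 and 3.20 CPM rostrally and 0.277, 0.689 and 0.803 CPM caudally (-2.53, SE 0.24, edgeR adjusted p = 0.00014). Both were genes of low level. Slc6a4, the serotonin transporter, was at 2.95, 6.37 and 5.94 CPM rostrally and 0.926, 1.32 and 1.32 CPM caudally (-2.05, SE 0.15, edgeR adjusted p = 1.97e-05). Its rostral level in T4 was below that of the other animals. Mc4r, a melanocortin receptor (-1.496), Slc30a3, the zinc transporter of synaptic vesicles (-1.49), Oprk1, the kappa opioid receptor (-1.45), and the transcription factor Runx2 (-1.42) belonged to the 15 largest rostral differences. Rgs9bp (-1.70), Lmod3 (-1.88), Susd5 (-1.64), Shroom1 (-1.45), Cpne9 (-1.44) and Trbc2 (-1.501) did too. Without T8, Oprk1 (-1.54, edgeR adjusted p = 0.139), Trbc2 (-1.48, edgeR adjusted p = 0.0593) and Cpne9 (-1.59, edgeR adjusted p = 0.251) no longer passed. Cpne9 did not pass without T70 either (-1.74, edgeR adjusted p = 0.081), nor Oprk1 without the block (-1.39, edgeR adjusted p = 0.113). Among abundant transcripts, the kelch protein Klhl29 was at 78.4, 78.1 and 73.2 CPM rostrally and 36.7, 34.1 and 34.5 CPM caudally (-1.12, SE 0.05, edgeR adjusted p = 1.35e-06). The atypical cadherin Fat3 (-0.87), the receptor phosphatase Ptprk (-0.84), the extracellular matrix protein Tnr (-0.84), the TGF-beta receptor Tgfbr1 (-0.94), the kinase Dgkh (-0.82) and the glycosyltransferase B3glct (-0.82) were lower caudally by similar amounts.

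The factors that pattern cortical areas differed between the pieces at this age, with Nr2f1, Nr2f2 and Emx2 higher caudally and Sp8 higher rostrally. Of 20 tested, 8 were higher caudally and 3 lower. The list median was 0.24, and it was 0.38 without T4 and 0.10 without T70, with 10 and 6 members higher. For this and every list below, the shares over all genes tested were 8.31% higher and 7.06% lower. A count near these shares says little about a list. Nr2f2 (chromosome 7, 70001692 to 70016483) was at 23.001, 19.5 and 20.7 CPM rostrally and 112, 80.8 and 84.4 CPM caudally (2.12, SE 0.06, edgeR adjusted p = 9.89e-08). Its paralogue Nr2f1 (chromosome 13, 78337092 to 78347876) was at 123, 107 and 91.5 CPM rostrally and 162, 155 and 161 CPM caudally (0.58, SE 0.07, edgeR adjusted p = 0.000805). The 2 nuclear receptors shared a direction, with a steeper step for Nr2f2, and neither overlapped between the pieces. Dmrt3, a factor of the caudomedial progenitor zone, was at 0, 0.0464 and 0.0162 CPM rostrally and 0.301, 0.778 and 0.787 CPM caudally, a level of few counts rostrally (edgeR adjusted p = 0.000184). Emx2 was at 12.02, 13.2 and 11.8 CPM rostrally and 12.9, 16.1 and 16.4 CPM caudally, a small step in which the libraries overlapped (0.29, SE 0.08, edgeR adjusted p = 0.0392). Emx2 lost its call without T8 (0.29, edgeR adjusted p = 0.155), without T70 (0.20, edgeR adjusted p = 0.122) and without the animal as a block (0.29, edgeR adjusted p = 0.0823), and DESeq2 did not call it (adjusted p = 0.092).

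On the rostral side of the same list, Sp8 was at 9.35, 7.66 and 13.5 CPM rostrally and 4.09, 4.25 and 5.78 CPM caudally (-1.10, SE 0.10, edgeR adjusted p = 8.19e-05). Tbr1, a factor of early born glutamatergic neurons, was at 161, 159 and 157 CPM rostrally and 125, 114 and 111 CPM caudally (-0.45, SE 0.05, edgeR adjusted p = 0.000288). Meis2, a homeobox factor of frontal cortex and of striatal neurons, was at 225, 202 and 257 CPM rostrally and 157, 118 and 116 CPM caudally (-0.82, SE 0.12, edgeR adjusted p = 0.007). All 3 kept a gap between the groups, as most called genes did. Pax6 was at 9.66, 10.3 and 13.7 CPM rostrally and 9.85, 10.1 and 10.5 CPM caudally and Emx1, an early marker of the whole cortical sheet, at 19.8, 20.2 and 13.9 CPM rostrally and 16.3, 20.1 and 24.1 CPM caudally, and neither passed (edgeR adjusted p = 0.4 and 0.718). Tshz2 came close, with a difference of 1.35 and an edgeR adjusted p of 0.0528. It passed without T4 (1.07, edgeR adjusted p = 0.00635), without T8 (1.62, edgeR adjusted p = 3.57e-05) and with DESeq2 (adjusted p = 0.00057).

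**Figure D2:**
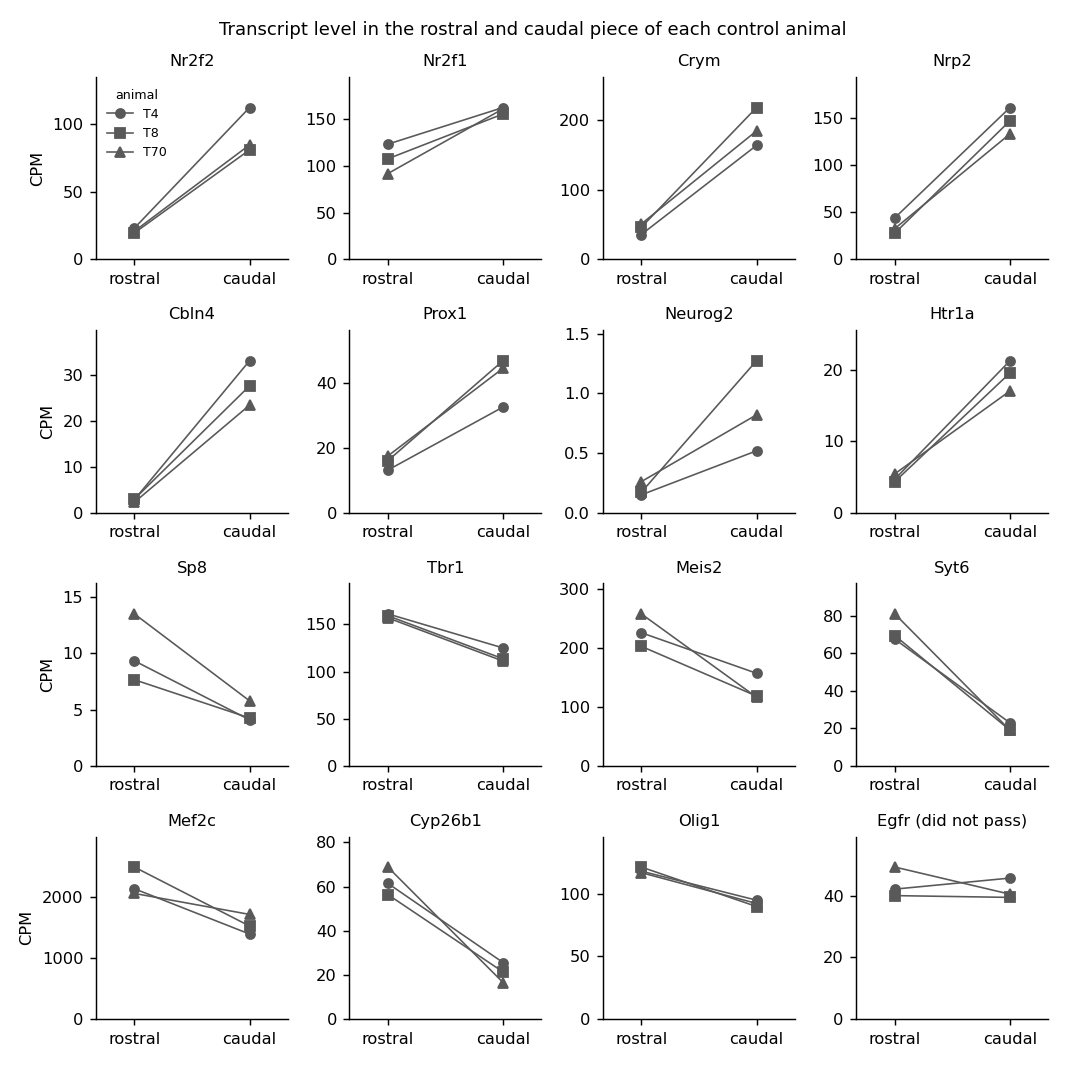
Level in CPM (vertical axis, from 0) of 16 genes in the rostral and caudal library of each control animal, with a line joining the libraries of an animal (circle T4, square T8, triangle T70). In all 3 animals the line goes up for the genes from Nr2f2 to Htr1a and down for those from Sp8 to Olig1, and it goes different ways for Egfr, which did not pass.

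The signals that act on this layout gave mixed lists. Among retinoic acid genes, 5 of 19 tested were higher caudally and 3 lower (list median 0.05). Cyp26b1, an enzyme that breaks down retinoic acid, was at 61.5, 56.4 and 68.9 CPM rostrally and 25.6, 21.3 and 16.5 CPM caudally (-1.57, SE 0.17, edgeR adjusted p = 0.00506). Aldh1a2, which makes retinoic acid in the meninges, was at 8.16, 3.48 and 9.34 CPM rostrally and 19.004, 14.6 and 17.8 CPM caudally (1.37, SE 0.22, edgeR adjusted p = 0.0198). Cyp26b1 was thus higher rostrally and Aldh1a2 caudally, each without overlap. Of their paralogues on the list, Cyp26a1 was called lower caudally too, and Aldh1a1 and Aldh1a3 did not pass. Aldh1a2 was lowest in the rostral library of T8, where the summed level of the meningeal list, which includes Aldh1a2, was lowest. The part of the meninges was not tested. Crabp2, a carrier of retinoic acid (1.61), was higher too and lost its call without T70 (1.68, edgeR adjusted p = 0.073). Cbln2, a synaptic organiser induced by retinoic acid in frontal cortex, was at 28.9, 33.5 and 41.7 CPM rostrally and 19.1, 16.6 and 18.9 CPM caudally (-0.92, SE 0.10, edgeR adjusted p = 0.00046). Without T4 or T70, 3 members rather than 5 passed on the caudal side. Aldh1a2 did not pass then (1.45, edgeR adjusted p = 0.248 without T4 and 1.60, edgeR adjusted p = 0.053 without T70) or without the block (1.30, edgeR adjusted p = 0.115), and Cyp26b1 did not without T8 (-1.66, edgeR adjusted p = 0.0634).

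In the list of FGF and ERK signalling, 4 of 20 tested genes were higher caudally and 3 lower (list median -0.01), and Fgf8, Fgf15 and Fgf17 were too low to be tested. The receptor Fgfr1 was at 32.5, 27.2 and 29.8 CPM rostrally and 54.4, 60.1 and 55.3 CPM caudally (0.93, SE 0.07, edgeR adjusted p = 3.74e-05). Dusp4, a phosphatase that ERK signalling induces and that acts back on it, was at 9.59, 9.02 and 9.37 CPM rostrally and 23.7, 23.96 and 21.1 CPM caudally (1.30, SE 0.07, edgeR adjusted p = 3.56e-06). Etv5, an ERK-dependent factor, went the other way (-0.29, SE 0.08, edgeR adjusted p = 0.0389), so the targets of the pathway did not share a direction. Without T8 the counts were 3 and 0, and without T70 6 and 1. Etv5 lost its call both times (-0.26, edgeR adjusted p = 0.158 and -0.19, edgeR adjusted p = 0.117). Of 27 Wnt pathway genes, 9 were higher caudally and 3 lower (list median 0.15). The receptors Fzd1 (1.07) and Fzd7 (0.87), the ligands Wnt4 (0.77) and Wnt5a (0.46) and the Wnt enhancer Rspo3 (0.94) were caudal. Rspo3 was at 4.82, 4.91 and 5.41 CPM rostrally and 9.18, 9.79 and 10.05 CPM caudally (edgeR adjusted p = 8.13e-05). The receptor Fzd10 was rostral, at 5.82, 5.65 and 4.56 CPM rostrally and 2.74, 2.66 and 2.57 CPM caudally (-1.004, SE 0.11, edgeR adjusted p = 0.000276). Axin2, a general Wnt target, was at 20.4, 20.1 and 18.9 CPM rostrally and 24.8, 20.3 and 22.2 CPM caudally and did not pass (0.18, SE 0.07, edgeR adjusted p = 0.118), and without T8 5 Wnt genes passed as higher and 2 as lower.

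Each of the 3 lists of the hippocampal formation held more genes called higher than lower in the caudal piece, and many members did not pass. Among dentate granule cell genes 6 of 14 tested were higher and 3 lower (list median 0.39). Their summed level was slightly lower caudally, at 444, 430.2 and 452 CPM rostrally and 435, 407 and 428 CPM caudally. Prox1, the factor that fixes granule cell fate, was at 13.1, 16.02 and 17.5 CPM rostrally and 32.6, 46.9 and 44.6 CPM caudally (1.41, SE 0.07, edgeR adjusted p = 1.35e-06). C1ql2, a synaptic protein of mossy fibres, was at 0.278, 0.324 and 0.162 CPM rostrally and 1.07, 0.973 and 0.866 CPM caudally (1.93, SE 0.26, edgeR adjusted p = 0.000848). Neurod1, needed for granule neurons to form, was at 12.8, 14.03 and 16.1 CPM rostrally and 33.8, 44.6 and 43.5 CPM caudally (1.503, SE 0.07, edgeR adjusted p = 1.23e-06). All 3 were above every rostral library in each caudal one, as most genes called higher were. The scaffold gene Pdzd2, which the list holds as a granule cell marker, was lower, at 271, 278 and 249 CPM rostrally and 167, 146 and 162 CPM caudally (-0.75, SE 0.06, edgeR adjusted p = 4.28e-05). Dsp, another member that defines the list, was at 2.49, 2.63 and 1.42 CPM rostrally and 1.84, 2.99 and 3.75 CPM caudally and did not pass (0.37, SE 0.34, edgeR adjusted p = 0.546).

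For the CA fields, 9 of 19 tested genes were higher caudally and 2 lower (list median 0.29, and 4 lower without T70). Without T8, 6 were higher and the median was 0.05. Pair by pair the median was -0.08 in T4, 0.63 in T8 and 0.26 in T70. Fibcd1, a marker of CA1 pyramidal cells, was at 4.06, 4.68 and 3.87 CPM rostrally and 26.5, 27.02 and 25.2 CPM caudally (2.64, SE 0.08, edgeR adjusted p = 8.31e-08). Wfs1, another CA1 gene, was at 21.7, 20.3 and 21.1 CPM rostrally and 46.3, 33.5 and 32.6 CPM caudally (0.82, SE 0.09, edgeR adjusted p = 0.000263), and Rgs14, a CA2 gene, at 2.67, 2.24 and 1.94 CPM rostrally and 7.10, 5.04 and 4.28 CPM caudally (1.25, SE 0.12, edgeR adjusted p = 8.73e-05). Ccn3, a secreted matrix protein, was at 87.6, 80.9 and 94.7 CPM rostrally and 184, 168 and 165 CPM caudally (0.97, SE 0.06, edgeR adjusted p = 9.72e-06). The groups did not overlap for any of the 4, as for most called genes. Mpped1, which neocortical neurons express too, was lower (-0.498), and the CA1 and neocortical factor Pou3f1, at 98.5, 95.3 and 70.5 CPM rostrally and 54.4, 63.9 and 67.4 CPM caudally, did not pass (-0.501, SE 0.16, edgeR adjusted p = 0.121). Pou3f1 passed without T70 (-0.72, edgeR adjusted p = 5.08e-05). Among genes of subiculum and hilar mossy cells, 4 of 10 were higher and 1 lower (list median 0.61, and 5 and 2 without T8). The neuropeptide gene Nts was at 5.31, 8.42 and 6.62 CPM rostrally and 37.9, 42.2 and 35.8 CPM caudally (2.52, SE 0.09, edgeR adjusted p = 8.16e-07) and the calcium buffer Calb2 at 11.6, 9.29 and 7.74 CPM rostrally and 34.7, 32.7 and 33.7 CPM caudally (1.83, SE 0.09, edgeR adjusted p = 4.96e-06). Calb2 stands on several of the lists, those of thalamus, Cajal-Retzius cells and interneurons included, so their counts are not independent.

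Genes of Cajal-Retzius cells, which are born at the edges of the cortex and line the hippocampal fissure, had 8 of 10 tested members higher caudally and 0 lower (list median 0.79), and 6 higher without T8 or without the block. Lhx1 was at 0.334, 0.479 and 0.421 CPM rostrally and 1.15, 1.26 and 1.18 CPM caudally (1.54, SE 0.21, edgeR adjusted p = 0.00103) and Ebf2 at 0.334, 0.402 and 0.890 CPM rostrally and 3.08, 2.25 and 2.46 CPM caudally (2.27, SE 0.29, edgeR adjusted p = 0.00109), both transcription factors at low level. Trp73, which these cells need to survive, was at 2.82, 4.08 and 3.69 CPM rostrally and 5.48, 6.74 and 5.9997 CPM caudally (0.79, SE 0.10, edgeR adjusted p = 0.000761). Reln, their secreted layering signal, was at 314, 282 and 270.2 CPM rostrally and 360.3, 347 and 309 CPM caudally (0.23, SE 0.05, edgeR adjusted p = 0.0112), a small step with overlapping libraries in a gene that interneurons express as well. Nhlh2 (1.27) and Ndnf (0.73) were higher too, and Lhx5 did not pass (0.79, SE 0.27, edgeR adjusted p = 0.0764). Reln lost its call without T8 (0.20, edgeR adjusted p = 0.15) and without the block (0.23, edgeR adjusted p = 0.0593), and Lhx5 passed without T70 (1.09, edgeR adjusted p = 0.0136).

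Neocortical layer genes leaned to the rostral piece. Of 16 upper-layer genes 7 were lower caudally and 3 higher, with a median of -0.36. Mef2c, an activity-regulated factor, was at 2140.2, 2497 and 2063 CPM rostrally and 1395, 1526 and 1718 CPM caudally (-0.53, SE 0.08, edgeR adjusted p = 0.00231). Pou3f2 was at 109.6, 126 and 112 CPM rostrally and 56.8, 67.3 and 83.5 CPM caudally (-0.76, SE 0.10, edgeR adjusted p = 0.00447) and its relative Pou3f3 at 240.2, 256 and 229 CPM rostrally and 162, 173 and 181 CPM caudally (-0.49, SE 0.06, edgeR adjusted p = 0.000373). In each of these the caudal library of T70 was the highest caudal one, and no libraries overlapped. Rorb, the factor of layer 4, was at 115, 106 and 74.6 CPM rostrally and 57.8, 56.1 and 67.3 CPM caudally and Cux2 at 165, 150.1 and 101 CPM rostrally and 97.3, 104 and 125 CPM caudally, and both missed the threshold (edgeR adjusted p = 0.118 and 0.497). The rostral library of T70 was the lowest rostral one in both. Without T70, 12 of the upper-layer genes passed as lower caudally and the median was -0.58. Rorb (-0.96, edgeR adjusted p = 1.61e-07) and Cux2 (-0.64, edgeR adjusted p = 2.98e-05) were among them.

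Of 17 deep-layer genes, 9 were lower caudally and 2 higher (median -0.21). Syt6, a synaptotagmin of layer 6 neurons, was at 67.4, 69.3 and 80.9 CPM rostrally and 22.8, 18.9 and 18.9 CPM caudally (-1.84, SE 0.09, edgeR adjusted p = 1.44e-05). Sox5 (-0.503), Foxp2 (-0.89), Tle4 (-0.28) and Ldb2 (-0.46), regulators of neurons that project below the cortex, were lower too. Crym and Thsd7b (0.88) were the deep-layer members that were higher. Fezf2, which specifies layer 5 output neurons, was at 34.6, 47.4 and 43.003 CPM rostrally and 37.8, 41.6 and 40.05 CPM caudally, and Bcl11b at 218, 193 and 204 CPM rostrally and 219, 179 and 164 CPM caudally, and neither passed (-0.06, SE 0.07, edgeR adjusted p = 0.643 for the former and -0.14, SE 0.06, edgeR adjusted p = 0.18 for the latter). Bcl11b passed without T4 (-0.22, edgeR adjusted p = 0.0379), Tle4 lost its call without T8 (-0.26, edgeR adjusted p = 0.0867) and Foxp2 without the block (-0.86, edgeR adjusted p = 0.135). Of 9 subplate genes 3 were higher caudally (median 0.28, and 2 with a median of 0.12 without T8). Among them Lpar1, a lysophosphatidic acid receptor, was at 11.96, 8.34 and 13.3 CPM rostrally and 16.6, 16.9 and 17.9 CPM caudally (0.63, SE 0.11, edgeR adjusted p = 0.00584). Nr4a2, which marks subplate and claustrum, was at 28.5, 6.83 and 11.1 CPM rostrally and 135, 121 and 99.2 CPM caudally. That is a gap between the groups in every animal, and a rostral level that varied enough for the difference of 3.13 to miss the threshold (SE 0.51, edgeR adjusted p = 0.0771). DESeq2 called it (adjusted p = 4.36e-08). The 7 tested genes of claustrum and endopiriform nucleus held 0 higher and 2 lower members.

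**Figure D3:**
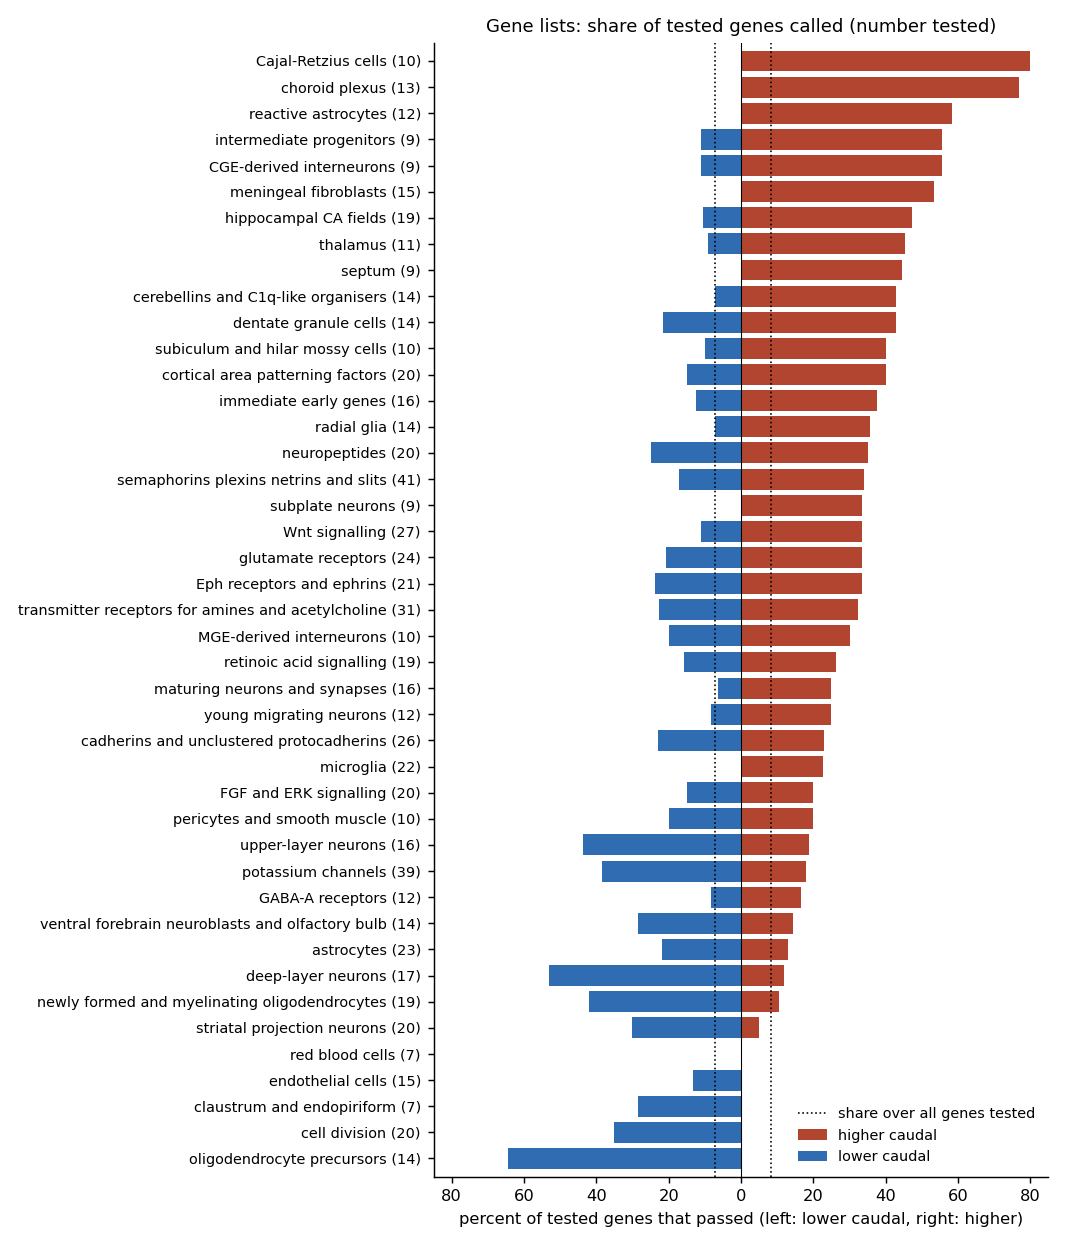
Share of the tested genes of each list that passed as higher (red, right) or lower (blue, left) in caudal cortex, with the number tested in brackets and dotted lines at the shares over all genes tested (8.31% and 7.06%). Cajal-Retzius and choroid plexus lists lie at the caudal end, and oligodendrocyte precursor and deep-layer lists reach furthest on the rostral side.

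In the list of semaphorins, plexins, netrins and slits 14 of 41 tested genes were higher caudally and 7 lower (median 0.04), and 4 were lower without T8. Nrp2, a receptor for class 3 semaphorins, was at 44.1, 27.9 and 32.7 CPM rostrally and 161, 147 and 133 CPM caudally (2.10, SE 0.10, edgeR adjusted p = 1.56e-05), and its paralogue Nrp1 at 35.9, 43.4 and 41.9 CPM rostrally and 78.7, 91.3 and 83.9 CPM caudally (1.07, SE 0.05, edgeR adjusted p = 1.9e-06). Slit3, a secreted repellent, was at 7.36, 6.33 and 6.91 CPM rostrally and 31.7, 27.2 and 25.7 CPM caudally (2.03, SE 0.07, edgeR adjusted p = 2.84e-07). Ntng1, a membrane-bound netrin of thalamocortical axons, was at 10.6, 9.19 and 9.48 CPM rostrally and 30.9, 27.7 and 20.5 CPM caudally (1.42, SE 0.09, edgeR adjusted p = 1.64e-05). None of the 4 overlapped between the pieces, which held for 1562 of the 1700 genes called higher. Of the plexins, the partners of neuropilins, Plxna4 (-0.35) and Plxnd1 (-0.28) were lower. Plxnd1 was not called without the block (-0.29, edgeR adjusted p = 0.354).

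Eph receptors and ephrins, which map connections between areas, split 7 higher to 5 lower of 21 (median -0.05, and 3 to 5 without T8). Epha6 was at 12.001, 11.7 and 13.4 CPM rostrally and 27.6, 25.8 and 23.3 CPM caudally (1.04, SE 0.08, edgeR adjusted p = 3.6e-05) and the ephrin Efnb3 at 169, 170.4 and 172 CPM rostrally and 284, 255 and 249.7 CPM caudally (0.62, SE 0.06, edgeR adjusted p = 6.73e-05). Ephb6 was at 127, 138 and 119 CPM rostrally and 64.4, 74.8 and 82.6 CPM caudally (-0.80, SE 0.08, edgeR adjusted p = 0.000383), the reverse direction. Epha3 was higher (0.52), and Epha8 (-0.40) and Ephb1 (-0.39) were lower. Classical cadherins and protocadherins split evenly, 6 higher and 6 lower of 26 (median -0.08). Pcdh8 (0.74) and Cdh20 (0.68) were on the caudal side and Cdh13 (-0.39) and Pcdh7 (-0.39) on the rostral side.

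Receptors for serotonin and acetylcholine were called on both sides. Over the list of amine and acetylcholine receptors, 10 of 31 tested genes were higher caudally and 7 lower (median 0.03). Htr1a, an inhibitory serotonin receptor, was at 4.69, 4.34 and 5.44 CPM rostrally and 21.3, 19.6 and 17.1 CPM caudally (2.001, SE 0.11, edgeR adjusted p = 4.6e-06). Htr2c was at 11.2, 5.47 and 7.74 CPM rostrally and 41.7, 22.2 and 23.7 CPM caudally (1.84, SE 0.08, edgeR adjusted p = 1.23e-06). The caudal groups lay apart from the rostral ones in both, with T4 highest. Among muscarinic receptors Chrm3 was at 19.9, 18.9 and 15.4 CPM rostrally and 34.4, 35.7 and 30.3 CPM caudally (0.89, SE 0.06, edgeR adjusted p = 1.56e-05) and Chrm2 at 18.6, 19.4 and 22.1 CPM rostrally and 9.81, 8.58 and 8.88 CPM caudally (-1.14, SE 0.08, edgeR adjusted p = 2.35e-05), in opposite directions. The nicotinic subunit Chrna5 (1.39) and the adrenergic receptor Adra2a (0.82) were caudal. Htr2c, which varied between animals, missed the threshold without the block (1.86, edgeR adjusted p = 0.0585).

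Glutamate receptor genes split 8 higher to 5 lower of 24 (median 0.06, with 5 higher when T4 or T8 was left out and 3 lower without T8). Gria1, an AMPA receptor subunit, was at 191, 174 and 201 CPM rostrally and 317, 325 and 318 CPM caudally (0.76, SE 0.06, edgeR adjusted p = 2.34e-05). Grik1 (0.79) and Grin2c (1.09) were higher, while Grm3 (-0.60) was lower. The subunits Gria2, at 406, 389.9 and 436 CPM rostrally and 452, 409 and 408 CPM caudally, and Grin2b, at 1176, 1343 and 1195 CPM rostrally and 1151, 1029.5 and 1013 CPM caudally, did not pass (edgeR adjusted p = 0.691 and 0.0596). Grin2b passed without T4 (-0.32, edgeR adjusted p = 0.00535), with DESeq2 (adjusted p = 0.0199) and with limma voom (adjusted p = 0.0468). Potassium channels leaned rostrally, with 15 of 39 tested genes lower caudally and 7 higher (median -0.05, and 9 lower without T8). Kcnn1, a calcium-activated channel, was at 40.3, 45.5 and 44.6 CPM rostrally and 20.99, 23.6 and 26.3 CPM caudally (-0.88, SE 0.06, edgeR adjusted p = 1.56e-05), and Kcnh7 at 118, 118 and 122 CPM rostrally and 73.8, 67.1 and 72.9 CPM caudally (-0.74, SE 0.05, edgeR adjusted p = 1.56e-05). Kcnd2, the channel of the dendritic A-type current, was on the caudal side at 127, 117 and 117 CPM rostrally and 162, 149 and 147 CPM caudally (0.34, SE 0.05, edgeR adjusted p = 0.000939). In the list of cerebellins and related organisers 6 of 14 were higher and 1 lower (median 0.15, and 4 higher without T8), with Nptxr (0.48) and Nptx2 (0.56) beside Cbln4 and C1ql2. Of 12 GABA-A receptor genes, 2 were higher and 1 lower. Gabra2 was at 92.7, 165 and 106 CPM rostrally and 165, 260.4 and 148 CPM caudally (0.66, SE 0.06, edgeR adjusted p = 0.000121), higher in T8 than in the other animals in both pieces, so that the libraries overlapped although each animal had more caudally. Without the animal as a block it did not pass (0.66, edgeR adjusted p = 0.332).

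Neuropeptide genes gave 7 higher and 5 lower of 20 (median 0.24), and 4 and 4 without the block. The median was 0.01 without T8 and 0.42 without T70. Cort (1.57) and Pnoc (1.46) were caudal. Trh, at 6.44, 5.01 and 5.65 CPM rostrally and 2.12, 2.42 and 3.31 CPM caudally, was rostral (-1.14, SE 0.15, edgeR adjusted p = 0.00092), as was Apln (-0.44). Immediate early genes were higher for 6 of 16 and lower for 2 (median 0.12, with 0.21 without T4 and 0.04 without T70). Bdnf, a neurotrophin induced by activity, was at 4.75, 4.67 and 5.60 CPM rostrally and 10.6, 10.3 and 10.2 CPM caudally (1.05, SE 0.09, edgeR adjusted p = 7.1e-05). Fos was at 6.03, 5.24 and 5.41 CPM rostrally and 9.44, 7.95 and 10.6 CPM caudally (0.74, SE 0.10, edgeR adjusted p = 0.000768), and Egr1, at 46.6, 35.8 and 35.4 CPM rostrally and 42.7, 32.8 and 36.99 CPM caudally, did not pass (-0.06, SE 0.06, edgeR adjusted p = 0.526). These genes thus did not move as a single group.

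Interneuron genes were called in both directions. Of 9 tested genes of cells from the caudal ganglionic eminence, 5 were higher caudally and 1, Sp8, lower (median 0.27). Nr2f2, Prox1, Calb2 and Reln, which are on other lists too, were 4 of the 5, and Adarb2 was the remaining member (0.37, SE 0.07, edgeR adjusted p = 0.0076). Of 10 genes of cells from the medial ganglionic eminence, 3 were higher and 2 lower (median 0.08, and 2 and 0 without T8). Sst, the somatostatin gene, was at 46.04, 33.7 and 33.7 CPM rostrally and 73.8, 55.2 and 54.6 CPM caudally (0.70, SE 0.05, edgeR adjusted p = 2.27e-05). Gad1, the enzyme that makes GABA, was at 72.7, 47.6 and 60.8 CPM rostrally and 117, 92.5 and 87.3 CPM caudally (0.72, SE 0.08, edgeR adjusted p = 0.00031), and Lhx6, which marks this lineage, at 35.8, 36.03 and 35.6 CPM rostrally and 43.4, 41.1 and 42.05 CPM caudally (0.24, SE 0.05, edgeR adjusted p = 0.0151). Npy was lower (-0.32, SE 0.06, edgeR adjusted p = 0.00522). Without the block Sst (0.70, edgeR adjusted p = 0.0624) and Gad1 (0.71, edgeR adjusted p = 0.0761) missed the threshold, as did Npy (-0.28, edgeR adjusted p = 0.0754) and Lhx6 (0.26, edgeR adjusted p = 0.0827) without T8. Lhx6 missed it without T4 too (0.21, edgeR adjusted p = 0.069).

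Several genes of neurogenic cells were higher caudally, and 7 of 20 genes of cell division were lower. Of 9 tested genes of intermediate progenitors 5 were higher and 1 lower (median 0.74). Of the higher ones, Neurod1 is also on the dentate list and Btg2 on the immediate early list, so these counts are not independent. With a filter of 1 CPM in 3 libraries, 3 of 7 tested genes of intermediate progenitors were higher. Eomes, the factor that defines these cells, was at 1.67, 1.36 and 1.83 CPM rostrally and 1.92, 4.60 and 4.54 CPM caudally (1.13, SE 0.28, edgeR adjusted p = 0.0392). Neurog2 was at 0.148, 0.170 and 0.259 CPM rostrally and 0.517, 1.27 and 0.819 CPM caudally (2.15, SE 0.32, edgeR adjusted p = 0.00142). In both, T4 had the lowest caudal level, and its Eomes libraries differed little. Without T8 or without T70, 3 members passed as higher. Eomes was called in neither case (0.80, edgeR adjusted p = 0.0623 and 1.03, edgeR adjusted p = 0.304), nor without the block (1.18, edgeR adjusted p = 0.0678). Insm1 was the member that was lower (-0.39, SE 0.09, edgeR adjusted p = 0.0183), and it was not called without T4 (-0.34, edgeR adjusted p = 0.0653) or without the block (-0.39, edgeR adjusted p = 0.0687). Of 14 radial glia genes 5 were higher and 1 lower (median 0.07). Hopx, a gene of outer radial glia and of astrocyte progenitors, was at 7.96, 9.93 and 7.57 CPM rostrally and 17.1, 21.6 and 21.4 CPM caudally (1.24, SE 0.09, edgeR adjusted p = 1.97e-05). Sox2, Hes1 and Pax6, which define the list, did not pass. In the cell division list 0 genes were higher (median -0.28). Mki67 was at 46.6, 47.7 and 69.8 CPM rostrally and 37.7, 37.6 and 44.5 CPM caudally (-0.43, SE 0.07, edgeR adjusted p = 0.00252) and Top2a at 49.1, 50.7 and 69.5 CPM rostrally and 39.6, 44.5 and 46.3 CPM caudally (-0.36, SE 0.07, edgeR adjusted p = 0.00921). The rostral library of T70 stood highest in both. This count depends on the pairing: 0 members passed without the animal as a block, and 4 did without T4.

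The lists of young neurons and of maturing synapses each held 1 gene called lower, near the share over all genes tested (7.06%). Over all genes, 8.31% were called higher. Of 12 young neuron genes 3 were higher and 1 lower (median -0.13), and DESeq2 and limma voom each called 4 as lower. Dcx, the microtubule protein of migrating neurons, was at 1388, 1537 and 1428 CPM rostrally and 1284, 1352 and 1272 CPM caudally and did not pass (-0.15, SE 0.05, edgeR adjusted p = 0.0783). It was called by DESeq2 (adjusted p = 0.0411) and by limma voom (adjusted p = 0.0451). Draxin, a guidance factor, was higher (0.73, SE 0.06, edgeR adjusted p = 3.43e-05), and Neurod6 lower (-0.55, SE 0.06, edgeR adjusted p = 0.00028). Of 16 maturation genes 4 were higher and 1 lower (median -0.03, and 1 and 0 without T8). The neurofilament gene Nefm was at 139.6, 148 and 127 CPM rostrally and 180.2, 207 and 199 CPM caudally (0.49998, SE 0.06, edgeR adjusted p = 0.000396). Neurod6 varied between animals and was not called without the block (-0.57, edgeR adjusted p = 0.172).

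Many genes of the oligodendrocyte lineage were lower in the caudal piece. Of 14 tested genes of oligodendrocyte precursors 9 were lower and 0 higher (median -0.25), and 5 were lower without T8. Olig1 was at 118, 121 and 117 CPM rostrally and 94.7, 89.7 and 92.1 CPM caudally (-0.36, SE 0.05, edgeR adjusted p = 0.000997), Vcan, a proteoglycan, at 229.5, 234 and 247 CPM rostrally and 171, 177 and 183 CPM caudally (-0.42, SE 0.05, edgeR adjusted p = 0.00027), and Gpr17, a receptor of cells about to differentiate, at 97.1, 95.5 and 122 CPM rostrally and 82.1, 72.1 and 81.03 CPM caudally (-0.41, SE 0.07, edgeR adjusted p = 0.00224). Each had all caudal libraries below all rostral ones, which held for 1342 of the 1444 genes called lower. Pdgfra, the growth factor receptor that defines precursors, was at 194, 185 and 213 CPM rostrally and 201, 161 and 172 CPM caudally and did not pass (-0.15, SE 0.07, edgeR adjusted p = 0.17). Of 19 tested genes of newly formed and myelinating oligodendrocytes 8 were lower and 2 higher (median -0.37). Bcas1 (-0.49), Cnp (-0.30), Ugt8a (-0.45) and Ermn (-0.92) were among the lower genes, and Mog and Opalin were too low to be tested. Without T4, Pdgfra passed (-0.26, edgeR adjusted p = 0.011).

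Astrocyte genes went both ways, with 3 of 23 higher and 5 lower (median 0.09). Kcnj10, the potassium channel that clears potassium around neurons, was at 113, 112 and 110.5 CPM rostrally and 80.7, 78.5 and 74.9 CPM caudally (-0.52, SE 0.05, edgeR adjusted p = 9.97e-05). Gja1, the gap junction protein of astrocytes, was at 142, 119 and 162 CPM rostrally and 206, 185 and 204 CPM caudally (0.504, SE 0.06, edgeR adjusted p = 0.00048), and Gfap, their intermediate filament, at 81.8, 59.7 and 80.5 CPM rostrally and 140.2, 143 and 142 CPM caudally (0.95, SE 0.09, edgeR adjusted p = 0.000498). Slc1a3 and Aqp4 did not pass (edgeR adjusted p = 0.122 and 0.365). Without T70, 9 astrocyte genes passed as higher and 4 as lower, and without T8 3 and 3. Of 12 genes known from reactive astrocytes, 7 were higher and 0 lower (median 0.57). Gfap is on the astrocyte list and Vim on the radial glia list too, so these counts are not independent. Serpina3n, a secreted protease inhibitor, was at 1.56, 1.33 and 2.09 CPM rostrally and 4.39, 3.98 and 4.66 CPM caudally (1.40, SE 0.13, edgeR adjusted p = 0.000107) and Vim at 73.6, 64.2 and 74.5 CPM rostrally and 101, 103 and 98.7 CPM caudally (0.52, SE 0.06, edgeR adjusted p = 0.000396). Of 22 microglia genes 5 were higher and 0 lower (median 0.25). Csf1r, the receptor these cells depend on, was at 36.4, 23.4 and 35.99 CPM rostrally and 45.7, 30.3 and 38.4 CPM caudally (0.26, SE 0.07, edgeR adjusted p = 0.0234), while Cx3cr1 (0.07) and P2ry12 (0.05), which define resting microglia, did not pass. The microglia count was 2 without T8 or without the block, and 8 without T70. Csf1r was not called without T4 (0.22, edgeR adjusted p = 0.087), without T8 (0.21, edgeR adjusted p = 0.207) or without the block (0.26, edgeR adjusted p = 0.578), and Slc1a3 was called without T70 (0.20, edgeR adjusted p = 0.042).

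**Figure D4:**
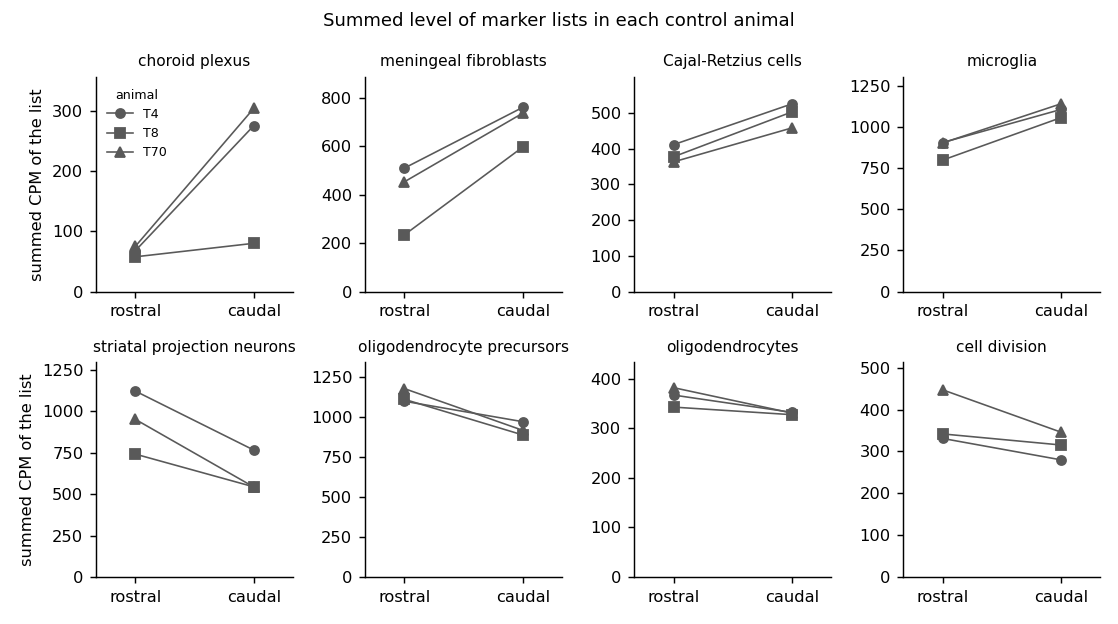
Summed level in CPM (vertical axis, from 0) of 8 marker lists in the rostral and caudal library of each control animal, with a line joining the libraries of an animal (circle T4, square T8, triangle T70). The choroid plexus sum of T8 stays near the rostral levels while those of T4 and T70 reach 276 and 304, and the oligodendrocyte and cell division sums are lower caudally in every animal.

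Genes of tissue next to the cortex differed between the pieces. Choroid plexus, which lines the ventricle beside the hippocampus, had 10 of 13 tested genes higher caudally and 0 lower (median 1.51). The sum of the list was 67.9, 57.7 and 75.2 CPM rostrally and 276, 80.2 and 304 CPM caudally. Ttr, the thyroxine carrier that is its most abundant transcript, was at 0.204, 0.340 and 0.0486 CPM rostrally and 165, 1.66 and 197 CPM caudally. With 2 caudal libraries high and that of T8 near 0, Ttr did not pass (edgeR adjusted p = 0.0698). Without T8 it did (edgeR adjusted p = 1.0e-10), and DESeq2 called it with T8 (adjusted p = 2.57e-05). Folr1 (0.0371, 0.0464 and 0.0486 against 1.61, 0.778 and 2.39 CPM), Otx2 (0.223, 0.0309 and 0.243 against 1.35, 0.389 and 0.976 CPM) and Aqp1 (1.82, 0.742 and 0.955 against 5.45, 2.54 and 6.52 CPM) passed (edgeR adjusted p = 1.43e-05, 0.000581 and 0.000424). Aqp1 missed the threshold without the block (2.06, edgeR adjusted p = 0.0514). In T8, where Ttr was low, Folr1, Otx2 and Aqp1 were still higher caudally, and the median difference of the list was 1.26. Of the caudal genes named above, the part that choroid plexus cells contribute was not tested.

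Meningeal fibroblast genes were higher for 8 of 15 tested and lower for 0 (median 1.07). The summed level was 509, 234 and 453 CPM rostrally and 760, 596 and 736 CPM caudally, so the rostral library of T8 held least. Igf2 was at 122, 59.6 and 119 CPM rostrally and 190.3, 131 and 176 CPM caudally (0.78, SE 0.11, edgeR adjusted p = 0.00718) and Foxc2 at 1.71, 0.618 and 1.65 CPM rostrally and 3.14, 2.36 and 3.42 CPM caudally (1.23, SE 0.19, edgeR adjusted p = 0.00217). The collagen gene Col1a1, at 86.5, 35.9 and 59.4 CPM rostrally and 111, 83.5 and 101 CPM caudally, did not pass (0.78, SE 0.18, edgeR adjusted p = 0.0621). The count was 13 without T8, 3 without T70, 2 without the block and 14 with DESeq2. Igf2 (0.73, edgeR adjusted p = 0.286) and Foxc2 (1.18, edgeR adjusted p = 0.0678) were not called without the block, Igf2 was not called without T4 (0.84, edgeR adjusted p = 0.0585), and Col1a1 was called with DESeq2 (adjusted p = 0.0166), without T4 (0.99, edgeR adjusted p = 0.000311) or T8 (0.56, edgeR adjusted p = 0.000793). Aldh1a2 and Crabp2 are on this list too, and the part of the meninges in those differences was not tested. Of 15 endothelial genes 0 were higher and 2 lower, and 0 were lower without T8. Of 10 genes of pericytes and smooth muscle 2 were higher and 2 lower (median 0.11, and -0.03 without T70), and 0 and 1 without the block. Of 7 red cell genes 0 were called, and 2 were higher without T4. The endothelial marker Cldn5 was at 66.3, 54.5 and 60.6 CPM rostrally and 63.7, 59.5 and 66.1 CPM caudally (0.06, SE 0.06, edgeR adjusted p = 0.514).

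Striatal projection neuron genes were lower caudally for 6 of 20 tested and higher for 1 (median -0.51). Their sum was 1123, 742 and 952 CPM rostrally and 767, 544 and 544 CPM caudally. Ppp1r1b, a phosphatase inhibitor that defines striatal neurons, was at 83.7, 23.3 and 54.7 CPM rostrally and 42.9, 9.56 and 11.1 CPM caudally. It varied more between animals than between pieces and did not pass (-1.49, SE 0.34, edgeR adjusted p = 0.0994), and neither did Drd2, at 9.22, 1.62 and 4.73 CPM rostrally and 6.04, 2.02 and 2.03 CPM caudally (-0.56, SE 0.26, edgeR adjusted p = 0.229). Drd1, which deep-layer neurons of the cortex also express, was at 25.4, 19.1 and 24.1 CPM rostrally and 16.7, 12.2 and 11.4 CPM caudally (-0.77, SE 0.09, edgeR adjusted p = 0.00053). The median difference of the list was -0.55 in T4, 0.16 in T8 and -1.09 in T70, and 13 members passed as lower without T8. Drd2 was among these (-0.87, edgeR adjusted p = 0.00103), and Ppp1r1b passed without T70 (-1.10, edgeR adjusted p = 7.0e-06) and with DESeq2 (adjusted p = 0.00181). The list median was -0.33 without T70. The summed level was lower caudally in each animal, and its part in the rostral levels of Meis2 and Foxp1 (-0.49), which are members, was not tested. Genes of ventral neuroblasts and olfactory bulb gave 2 higher and 4 lower of 14 (median -0.34, -0.19 without T70, and 0 and 6 without T8), with Dlx1 (-0.42) and Dlx2 (-0.56) lower. Septal genes gave 4 higher and 0 lower of 9 (median 0.23), with Zic2 (0.71) and Zic4 (1.03) higher. The median was 0.08 without T8 and 0.55 without T4, and Zic4 was not called without the block (0.99, edgeR adjusted p = 0.0537).

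Thalamic genes were higher for 5 of 11 tested and lower for 1 (median 0.23). Their sum was 217, 192 and 196 CPM rostrally and 302, 269 and 275 CPM caudally. Tcf7l2, which defines thalamic neurons, was at 4.27, 4.91 and 4.89 CPM rostrally and 6.93, 4.33 and 4.66 CPM caudally and did not pass (0.15, SE 0.16, edgeR adjusted p = 0.597), and Gbx2, the other defining factor, was too low to be tested. Lhx9, at 0.705, 0.479 and 1.28 CPM rostrally and 6.16, 8.31 and 7.496 CPM caudally (3.18, SE 0.26, edgeR adjusted p = 0.000421), Slc17a6, at 54.9, 49.04 and 44.8 CPM rostrally and 87.8, 76.3 and 81.9 CPM caudally (0.73, SE 0.06, edgeR adjusted p = 3.88e-05), and Calb2 carried the count with Ntng1 and Prkcd (0.29). Slc17a6, Calb2 and Ntng1 are known from cortex and hippocampus as well. Rora, a factor of thalamus and of layer 4, was lower (-0.37, SE 0.07, edgeR adjusted p = 0.00691). Prkcd (0.24, edgeR adjusted p = 0.136) and Rora (-0.29, edgeR adjusted p = 0.057) lost their calls without T8.

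The same contrast in the cKO animals gave no called gene, and its 3 pairs went different ways. With the same fit on the 6 cKO libraries, edgeR called 0 of 20944 genes, with 405 at an unadjusted p under 0.05, and DESeq2 called 9, all lower caudally. With T3, T6 or T80 left out in turn, edgeR called 0 each time, with 762, 1370 and 84 genes at an unadjusted p under 0.05. Egfr, the targeted gene, was at 10.2, 6.35 and 12.4 CPM rostrally and 5.70, 14.6 and 9.36 CPM caudally (T3, T6 and T80), far below the control levels. Of the 1700 genes higher caudally in control, 1693 were also tested in cKO, and 1364 of these (80.6%) had a fitted difference of the same sign. For the 1444 lower genes this held for 1182 of 1433 (82.5%). The median over the higher genes was 0.64 in control and 0.19 in cKO, and over the lower genes -0.36 and -0.16. These genes were chosen for passing in the control libraries, which by itself raises the size of their control medians, so the sizes are given side by side and not compared.

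The shared direction in cKO rested on the pair T6. Mitochondrially encoded genes took 8.18% of the counts of its rostral library and 3.98% of its caudal library. In the other cKO libraries this share was 2.36% to 3.92%, and its part in the result was not tested. Pair by pair, the median over the higher genes was 0.56, 0.69 and 0.54 in T4, T8 and T70, while the cKO pairs gave -0.22 (T3), 0.94 (T6) and 0.03 (T80). Over the lower genes it was -0.32, -0.40 and -0.35 in control, and 0.0069 (T3), -0.43 (T6) and -0.04 (T80) in cKO. The control sign was kept in T6 by 91.2% of the higher and 81.2% of the lower genes, in T80 by 54.9% and 59.4%, and in T3 by 26.8% and 49.1%. T3 thus went against its region labels for the higher genes and had no prevailing sign for the lower ones, and whether its pieces are labelled the right way round was not tested. In the fit without T3, 88.9% of the higher and 81.7% of the lower genes had the control sign (medians 0.49 and -0.26). Without T80 these were 85.5% and 83.0% (0.32 and -0.22), and without T6 40.2% and 52.5% (-0.07 and -0.0093).

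Single genes differed in how near the cKO fit came to the control value. Prox1 was at 1.45 in the cKO fit against 1.41 in control and Nts at 2.66 against 2.52, while Nr2f2 was at 0.27 against 2.12 and Dsc3 at 0.57 against 4.96, and none of them passed in cKO. In the test of the difference between genotypes, the interaction over all 12 libraries, edgeR called 0 of 21599 genes, with 943 at an unadjusted p under 0.05, and DESeq2 called 11. Without T6 edgeR called 736, and without T3 1. A difference between genotypes in the regional pattern was not established by the test.

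**Figure D5:**
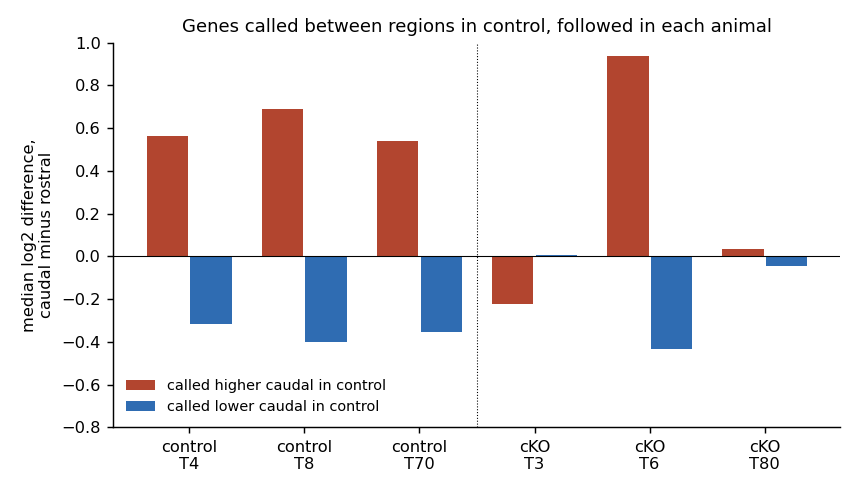
Median difference between caudal and rostral cortex (log2, vertical axis) in each animal over the genes called higher (red) or lower (blue) caudally in control. The 3 control animals gave the calls and lie close together, and the cKO animals range from -0.22 (T3) to 0.94 (T6) over the higher genes.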

How the data were processed

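Paired-end reads of captured mRNA were processed by the authors with STAR 2.7.8a and featureCounts 2.0.3 on GRCm39, per the submitters' processing notes. The sources used here do not give the annotation release, the strand setting or how multi-mapping reads were counted. The deposited tables hold estimated counts per gene, of which 10.6% to 13.3% were fractional in a control library. They were rounded to whole numbers and the count tests planned for whole counts were kept. Values of near-identical copies and of overlapping or antisense genes are uncertain.

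The 6 control libraries were fitted with edgeR 4.0.16 (R 4.3.3): filterByExpr, TMM scaling, robust quasi-likelihood F test with animal as block, Benjamini-Hochberg adjustment, threshold 0.05. The same fit was made on the 6 cKO libraries, and an interaction fit on all 12. Deviations from the group means correlated across genes at r = 0.281, 0.253 and 0.255 between the libraries of T4, T8 and T70. Each control library thus correlated best with the library of its own number. Correlations between animals were negative, which subtracting the group mean favours, so they are not added evidence for the pairing. In cKO r was 0.0207 (T3), -0.0033 (T6) and 0.471 (T80). Rostral T6 correlated more with caudal T3 (0.1925) than with caudal T6. These values do not show the pairing for T3 and T6, which were blocked by number all the same. Apart from the T numbers, nothing in the labels says that same-numbered pieces come from 1 animal. Depth limits low genes only.

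Genes named are Egfr, the 15 largest called differences each way (mean CPM of at least 1, groups without overlap), 8 each way among those at 50 CPM or more, up to 6 called members and 3 others per list, and members that define a list; some of these are not reported here. Model names, copies of 7SL or 7SK, mitochondrially encoded genes, X-inactivation transcripts and Y-linked genes were left out. The 43 lists (685 genes, 662 tested) and the members of the comparison were chosen with earlier results of these data known. Alternatives were DESeq2 1.42.0, limma 3.58.1 voom, other scalings and filters, no block, all 12 libraries and leaving out each animal; list counts under these were added after seeing the data.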

Additional observations from a re-analysis of the deposited data

Results flagged for a closer look

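Sst, the gene of the interneuron peptide somatostatin, was flagged in a search of the genes named in the text. The sign of its difference was opposite between every control pair and every cKO pair. Its caudal minus rostral log2 difference was 0.68, 0.71 and 0.70 in control T4, T8 and T70, and -0.0012, -0.35 and -0.073 in cKO T3, T6 and T80. The value of T3 is hardly a difference, so for that pair the flag rests on the sign alone. The fitted difference was 0.70 in control and -0.14 in cKO. The interaction of genotype and region for Sst was -0.84 with an unadjusted p of 0.000145 in edgeR, and after adjustment over 21599 genes it did not pass (adjusted p = 1). The difference between genotypes is thus not established by the test.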

How the results depend on the processing

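The count of genes that differed between caudal and rostral control cortex stayed between 2377 and 4135 under DESeq2, limma voom, RLE and upper-quartile scaling, library size alone, both other filters and no replicate block (2492 genes, of which 2444 were called in the same direction with the block). With all 12 libraries in the fit it was 0. With an animal left out it ran from 1685 to 3310. In cKO it was 0 with each animal left out and 9 with DESeq2. For the interaction it was 11 with DESeq2 and ran from 0 to 736 with an animal left out. The cause was not tested. Reversals were counted for the named genes in all settings, and for list medians only with an animal left out. The 14 reversals among 195 named genes were all of genes that did not pass: Egfr (0.0081), Egr1 (0.0055) and Fezf2 (0.016) with library size alone, and, over the fits with an animal left out, Cx3cr1 (-0.00082 to 0.14), Gria2 (-0.019 to 0.11), P2ry12 (-0.039 to 0.21, with -0.031 without T8), Tcf7l2 (-0.13 to 0.32), Fezf2 (-0.15 to 0.012), Dsp (-0.11 to 0.76), Egfr (-0.16 to 0.049), Emx1 (-0.14 to 0.38), Hes1 (-0.051 to 0.16) and Pax6 (-0.21 to 0.0016). Without the animal as a block 20 named genes lost and 1 gained a call, beside 165 lost with all 12 libraries. Of 516 list medians over these settings, 482 moved by less than the spread between the pairs. With an animal left out, 25 of 43 list medians moved by over 1.5 times, 15 of them among the 16 lists whose median lies within 0.1 of 0. The sign changed for 7 of the 43, and 1 of these had a median beyond 0.1 of 0. With 3 animals a group, single genes near the threshold are the least certain.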

Other observations

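Beyond the regional pattern, some genes differed between the control animals in both pieces. In the same fit, the animal term passed for 115 of 20461 genes (edgeR, Benjamini-Hochberg adjusted p under 0.05), a test added after the data were seen. The genes named here are among those with the smallest p and a mean of at least 10 CPM, and were chosen after their values were seen. Tmem254a, a gene of a transmembrane protein, was at 25.6, 25.3 and 105.8 CPM rostrally and 25.0, 27.2 and 109 CPM caudally in T4, T8 and T70 (edgeR adjusted p = 1.42e-07). The libraries of T70 stood about 4 times above the other 4, and the pieces of an animal were alike. Mcm6, a subunit of the replicative helicase, was at 16.9, 17.0 and 33.9 CPM rostrally and 16.2, 19.4 and 34.7 CPM caudally (edgeR adjusted p = 0.00026). Tmem267 went the other way in T70, at 29.1, 24.0 and 14.1 CPM rostrally and 28.8, 23.2 and 11.6 CPM caudally (edgeR adjusted p = 0.000386).

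In T8 both libraries were below those of the other animals from the same piece for Mrc1 and Lamc3. Mrc1, a receptor of border macrophages, was at 19.96, 9.41 and 18.3 CPM rostrally and 30.7, 17.1 and 25.5 CPM caudally (edgeR adjusted p = 0.00347 for the animal term). Lamc3, a laminin chain of the brain surface, was at 14.1, 7.66 and 12.2 CPM rostrally and 17.1, 11.1 and 15.7 CPM caudally (edgeR adjusted p = 0.0135). The haemoglobin gene Hba-a1, whose counts may be split with a near-identical copy, was highest in T8 and lowest in T70, at 155, 190.1 and 99.7 CPM rostrally and 149.8, 210.03 and 129.8 CPM caudally (edgeR adjusted p = 0.0137). T4 was set apart by Slc32a1, the vesicular GABA transporter, at 41.1, 23.0 and 25.3 CPM rostrally and 49.1, 34.1 and 31.3 CPM caudally (edgeR adjusted p = 0.00611).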
